A study of Mus musculus with 44 samples.

Results

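TH2B, encoded by H2bc1 on chromosome 13, is the testis form of histone H2B. It replaces somatic-type H2B when male germ cells enter meiosis and remains in round spermatids, the haploid cells that follow meiosis. In later spermatids most histones are evicted from DNA and replaced first by transition proteins and then by protamines, which pack the sperm genome. Somatic-type H2B genes belong to the replication-type histone genes, which are clustered and normally most active when DNA is copied.

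The comparison described here is that of round spermatids from adult mice labelled kd with round spermatids from adult wild-type mice, 5 arrays against 5, out of 44 arrays in 8 groups. The series measured total RNA from spermatocytes and round spermatids on single-colour Illumina BeadChips in 2 experiments. In experiment 2, which holds these 10 arrays, the kd mice (th2bkd in the labels) are said to make no TH2B at all. Experiment 1 compared wild-type mice with Th2b+/tag mice, whose tagged TH2B carries His, Flag and Ha at its C terminus, 6 arrays for each genotype and cell type. The design text calls the arrays of a condition biological replicates. A genotype entry in the labels refers to brdt, not to TH2B, so groups follow the array titles. How the kd allele was made, the strain of the mice and the way the cells were purified are not stated in the labels.

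Of 12260 genes tested, 11441 were above background on at least 1 of the 10 spermatid arrays and 8102 on all 10. Between 15997 and 17463 of the 45281 probes were above background per array, and precision is limited by having 5 arrays a group. Levels are normalized log2 intensities, so that 1 unit is a 2-fold difference. The lowest value above background was 4.90 to 5.06, depending on the array. Values below it, down to the bottom of the scale around 4.4, carry no signal. All 21 round spermatid marker genes were above background on every array of both groups. Their mean level ran from 11.96 to 12.09 in wild type and from 12.04 to 12.10 in kd. The same 21 were above background on every spermatocyte array of experiment 2, at means of 9.95 to 10.41 in wild type and 10.18 to 11.19 in kd. Of 22 spermatocyte markers, 19 were above background on every wild-type spermatid array and 21 on every kd one. Their mean level ran from 9.03 to 9.26 and from 9.11 to 9.21, against 9.98 to 10.21 in wild-type spermatocytes. All 15 elongating spermatid markers were above background on every spermatid array. Of the 9 Leydig cell markers, 3 were above background on every wild-type array and the same number on every kd array, among them Insl3, at 9.42 ± 0.76 in wild type and 9.67 ± 0.87 in kd (SD, n = 5 each), and Cyp17a1. The Leydig genes Star and Hsd17b3 were above background on none. Of the 15 Sertoli cell markers, 11 were above background on every array of each group, at mean levels of 6.33 to 7.09 in wild type and 6.32 to 6.83 in kd. Kd replicate 2 stood apart from the other 9 arrays, at -31.57 on the second principal component against -8.82 to 8.58 for the others. Without it 289 genes passed the threshold, and 202 of these were among those called with all arrays.

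In kd round spermatids 85 genes were higher (0.693%) and 147 lower (1.2%) than in wild type at an adjusted p under 0.05 (limma, Benjamini-Hochberg over all genes), 232 genes or 1.89% of those tested. Few of the differences were large: 25 of the higher and 28 of the lower genes differed by at least 2-fold, and the median size among the 232 was 0.78 on the log2 scale. The median over all 12260 genes was 0.00. At an unadjusted p under 0.05, 1266 genes (10.3%) passed. For 163 of the 232 genes no kd array overlapped any wild-type array, while such a separation was found for 5.29% of all genes tested. Of the 232 genes, 166 were above background on all 10 arrays. Just inside the threshold lay Zfp933 (-0.69, adjusted p = 0.0485) and Ros1 (-0.61, adjusted p = 0.0497), and just outside it Oma1 (0.46, adjusted p = 0.0501) and Slamf1 (-0.50, adjusted p = 0.0524). Zfp933 passed in 2 of the 10 fits that left out 1 array, without wild-type array 4 or kd array 4, and Ros1 in 2, without wild-type array 1 or kd array 5. With median centring in place of quantile normalization the split changed from 85 higher and 147 lower to 58 higher and 164 lower.

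**Figure D1:**
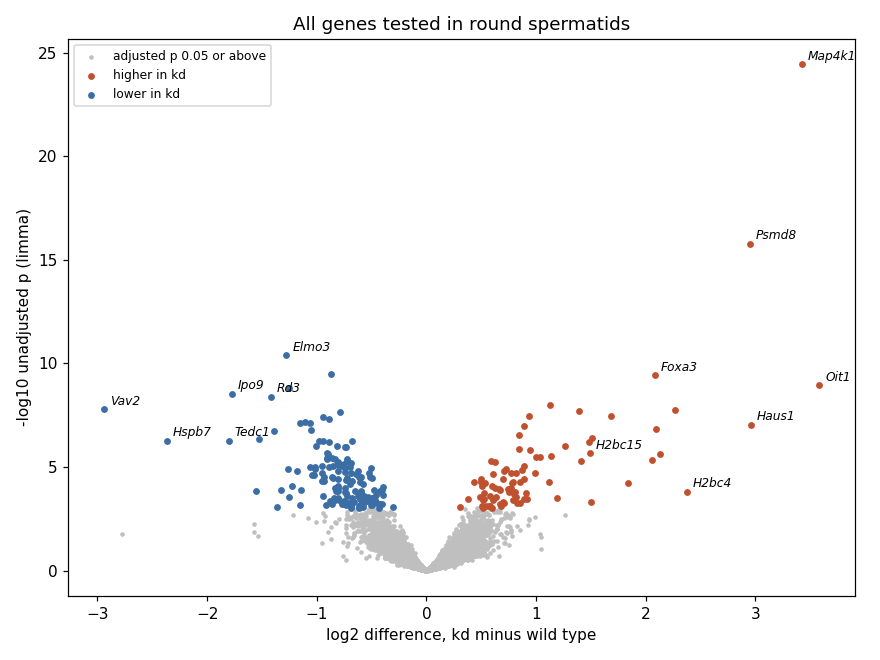
Each point is 1 of the 12260 genes, with the log2 difference of kd minus wild-type round spermatids on the horizontal axis and the negative log10 of limma's unadjusted p on the vertical axis. The 85 genes called higher and the 147 called lower are coloured, and Map4k1, at 3.43, stands above all others.

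The gene for TH2B itself could not be followed. The H2bc1 probe read 4.64, 4.40, 4.39, 4.78 and 4.61 on wild-type arrays 1 to 5 and 4.85, 4.85, 5.34, 4.74 and 4.89 on kd arrays 1 to 5. It was above background on none of the wild-type arrays and on 1 of the kd arrays, number 3. The fitted difference was 0.37 ± 0.14 (SE), which did not pass (adjusted p = 0.264, limma). The probe had no signal in wild-type cells, and the sources used here do not place it relative to what was altered, so it checks nothing about the kd label. In spermatocytes the same probe was above background on none of the 5 wild-type and on 5 of 5 kd arrays, at 4.61 ± 0.13 and 6.61 ± 0.50 (SD, n = 5 each). The probe's signal thus rose by 2.01 on the log2 scale (adjusted p = 9.97e-14, limma) in mice said to make no TH2B. H2ac1, the neighbouring gene for testis histone H2A, differed by -0.34 ± 0.19 (adjusted p = 0.586).

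Somatic-type H2B genes were the histone group in which calls were made. Of 9 such genes tested, 3 rose and none fell, where 0.693% of all genes were called higher, and the median of the list was 0.47. These genes have near-identical copies, so the member behind a probe's signal is uncertain. The promoters of H2bc1 and of both risers that the RefSeq table lists are shown because the testis and somatic-type forms of the same histone are set side by side. Each line gives the 250 bases before the annotated start, 5′ to 3′, with matches in capitals to the histone octamer ATTTGCAT, the CCAAT box, the TATA box TATAAA and the cyclic AMP response element TGACGTCA on either strand.
H2bc1: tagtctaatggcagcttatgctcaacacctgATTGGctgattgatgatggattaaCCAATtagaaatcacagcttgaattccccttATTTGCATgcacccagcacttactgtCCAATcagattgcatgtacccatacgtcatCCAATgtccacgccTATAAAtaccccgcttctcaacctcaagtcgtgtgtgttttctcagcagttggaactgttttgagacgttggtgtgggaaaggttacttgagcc
H2bc15: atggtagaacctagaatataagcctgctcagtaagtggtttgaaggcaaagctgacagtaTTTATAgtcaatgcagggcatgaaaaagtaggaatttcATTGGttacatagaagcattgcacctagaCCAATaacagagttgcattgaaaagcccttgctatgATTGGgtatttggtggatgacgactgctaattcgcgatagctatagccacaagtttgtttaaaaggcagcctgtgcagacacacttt
H2bc9: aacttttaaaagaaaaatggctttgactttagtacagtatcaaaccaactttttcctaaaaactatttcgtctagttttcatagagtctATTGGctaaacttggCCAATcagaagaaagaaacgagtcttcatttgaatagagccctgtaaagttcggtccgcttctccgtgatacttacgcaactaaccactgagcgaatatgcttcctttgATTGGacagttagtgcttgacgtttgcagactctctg
They lie at chr13:23934157-23934406 on the minus strand, chr13:21753826-21754075 on the plus strand and chr13:23543445-23543694 on the minus strand of GRCm38.p6. The H2bc1 window held the octamer 164 bases before the start, 4 CCAAT matches and a TATAAA match. Neither H2bc15 nor H2bc9 held the octamer, and both had 3 CCAAT matches. H2bc15 held a TATAAA match on the minus strand, 190 bases before the start, and H2bc9 held none. Of the 13 somatic-type H2B promoters in the table, 5 held the octamer, 13 CCAAT and 7 TATAAA, so these letters are not particular to H2bc1. Of 32536 distinct promoter windows of this length, 1.62% held the octamer, 33.8% CCAAT, 12.3% TATAAA and 1.56% the cyclic AMP response element, of which these 3 windows held none. The matches are descriptions of the letters and were not tied to binding.

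H2bc15 was at 6.69, 6.67, 5.79, 6.84 and 5.60 on wild-type arrays 1 to 5 and at 8.01, 7.83, 7.71, 7.85 and 7.66 on kd arrays 1 to 5. Every kd array was above every wild-type array, and the kd values were closer together. The rise was 1.49 ± 0.27 on the log2 scale, or 2.81-fold (adjusted p = 0.000594, limma). H2bc4 was at 8.12, 8.15, 5.14, 8.07 and 4.99 in wild type and at 9.48, 9.18, 9.37, 9.33 and 8.99 in kd. The wild-type arrays fell into a high set of 3 and a low pair, numbers 3 and 5, and all kd arrays were above both. The fitted rise was 2.38 ± 0.57 (adjusted p = 0.0128), and it no longer passed without wild-type array 3 or without wild-type array 5, with values of 1.94 (adjusted p = 0.1003) and 1.90 (adjusted p = 0.0974). H2bc9 was at 8.52, 8.14, 7.89, 8.12 and 7.79 in wild type and at 9.26, 9.12, 8.50, 8.92 and 8.91 in kd, with kd array 3 below wild-type array 1. Its rise of 0.85 ± 0.23 (adjusted p = 0.0347) was close to the threshold and passed again only when wild-type array 1 or kd array 3 was the array left out (adjusted p up to 0.127 otherwise).

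The other 6 somatic-type H2B genes did not pass in the main fit. H2bc11 was at 11.59 ± 0.08 in wild type and 12.17 ± 0.08 in kd (SD, n = 5 each), a difference of 0.57 (adjusted p = 0.278, limma). H2bc14 differed by 0.46 (adjusted p = 0.426). The kd arrays of these bright genes did not overlap the wild-type arrays, and neither difference passed over all genes in the main fit. That fit takes its spread from all groups, spermatocytes included, and gave H2bc11 a standard error of 0.23. H2bc11 passed in 4 of 24 other settings and H2bc14 in 3 of 24. A rise in these genes is therefore not excluded. The probe for H2bc12 used here gave -0.43 (adjusted p = 0.462), and H2bc12 passed in 3 of 24 other settings. A second probe of the same gene gave 0.49, so the probes of H2bc12 disagreed. In kd spermatocytes H2bc11 and H2bc14 were called, with differences of 1.73 (adjusted p = 2.34e-06) and 1.69 (adjusted p = 8.22e-07). The difference between the cell types itself did not pass for H2bc11 (-1.16, adjusted p = 0.429) or H2bc14 (-1.23, adjusted p = 0.159).

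No call was made among the other histone genes or the proteins that replace histones. None of 36 clustered H2A, H3, H4 and H1 genes passed (median 0.09), nor any of 14 histone variants (median -0.05). H2ac15, a clustered H2A gene, was nearest with 0.99 ± 0.31 (adjusted p = 0.0959, limma). H1f2, a somatic linker histone, was at -0.79 ± 0.25 (adjusted p = 0.115). None of 5 transition protein, protamine and testis linker histone genes passed (median 0.09). Tnp1, the first transition protein, was at 13.98, 14.11, 14.13, 14.20 and 13.97 in wild type and at 14.16, 14.13, 14.17, 14.17 and 14.21 in kd. The groups overlapped, and the difference was 0.09 ± 0.17 (adjusted p = 0.939). Tnp2, the second transition protein, differed by 0.09 ± 0.20, Prm1, a protamine, by -0.06 ± 0.10, and Prm3 by 0.12 ± 0.27.

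Histone removal and chromatin remodelling factors gave 1 call among 56 genes (1.79%), close to the 1.89% of all genes. The other lists here, with at most 1 call each, were likewise too small to set apart from that share. Camk4, a calcium-dependent kinase known in mouse spermatids to phosphorylate protamine 2, was at 5.92, 6.21, 6.61, 6.49 and 6.42 in wild type and at 7.29, 6.85, 7.38, 7.35 and 6.86 in kd. All kd arrays lay above all wild-type arrays, and the rise was 0.81 ± 0.21 (adjusted p = 0.0212, limma). It did not pass without wild-type array 1 or 2 or without kd array 1, 3 or 4 (adjusted p up to 0.0786). Among 38 proteasome genes, Psmd8 rose and the other 37 did not pass (median -0.01). Camk4 was also the single call among 20 spermatid kinases and phosphatases (median 0.00), and the muscle heat shock gene Hspb7 that among 36 heat shock and chaperone genes (median -0.03). No gene passed among 35 ubiquitin ligases and related enzymes (median 0.01).

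Lists of the spermatid programme held at most 1 call each, too few to set apart from the 1.89% called over all genes. None of 36 listed regulators of transcription or RNA at the spermatid stage passed (median -0.06). Nor did any of 48 acrosome genes (median 0.00) or 72 sperm tail genes (median 0.00). Piwil1, the pachytene piRNA-binding protein, was nearest at -0.48 ± 0.14 (adjusted p = 0.0739, limma). Dnah8, a dynein heavy chain of the sperm tail, was at -0.90 ± 0.35 (adjusted p = 0.257). Among 28 energy enzymes Ak1, an adenylate kinase, fell by 0.50 (adjusted p = 0.0396). Leaving out any array other than wild-type 1 or kd 2 ended the call for Ak1 (adjusted p up to 0.208). Prkaca, the catalytic subunit of protein kinase A, was at -0.45 (adjusted p = 0.0804). Among 20 sex-linked spermatid genes none passed, with a median of 0.24. Usp26, an X-linked deubiquitinase, was at 0.44 ± 0.26 (adjusted p = 0.606). Of all 389 X-linked genes tested none passed, against 1.89% of all genes, and their median was 0.11.

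Meiotic, piRNA and stress lists each held at most 2 calls, where 1.89% of all genes were called. Aurkc, the Aurora kinase of meiotic chromosome segregation, was at 9.32, 9.05, 9.17, 9.63 and 9.44 in wild type and at 8.27, 8.66, 8.10, 8.60 and 8.44 in kd. The groups did not overlap, and the fall was 0.91 ± 0.17 on the log2 scale (adjusted p = 0.000594, limma). A second probe of Aurkc gave -0.60. It was the single call among 46 meiotic prophase genes (median 0.08). Among 22 piRNA genes Asz1, a germ granule protein needed for piRNA production, fell by 0.58 ± 0.15 (adjusted p = 0.0255), with no overlap between the groups. The Asz1 call ended without wild-type array 1, 4 or 5 or kd array 1, 4 or 5 (adjusted p up to 0.0942). Among 32 p53 and cell death genes Bbc3, the p53 target PUMA, rose by 1.27 ± 0.22 (adjusted p = 0.000311), while 2 other probes of it gave 0.06 and 0.10. Mlkl, the executor of necroptosis, fell by 0.91 ± 0.25 (adjusted p = 0.0392), a call kept only when wild-type array 1 or kd array 4 was the one left out. None of 44 DNA damage genes passed (median 0.03), and Rad54l, a recombination factor, was nearest at 0.40 (adjusted p = 0.089). None of 21 immediate early genes (median 0.12) and none of 52 ribosomal protein genes (median 0.06) passed.

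**Figure D2:**
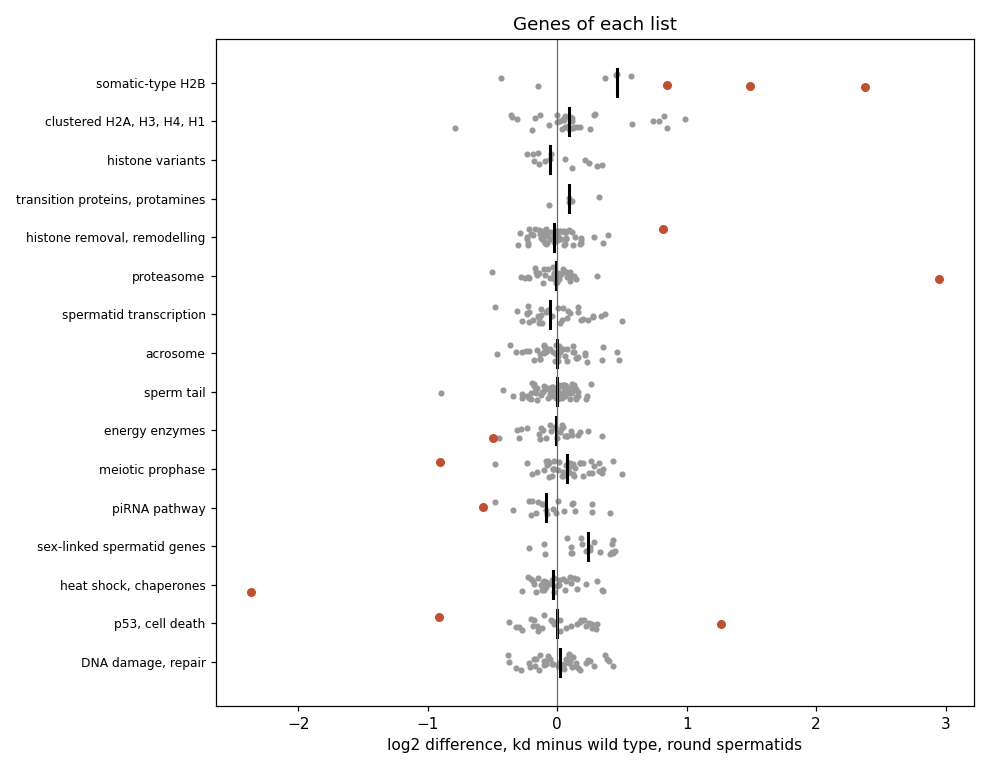
Each point is a tested gene of the list named at the left, placed by its log2 difference of kd minus wild-type round spermatids. Large coloured points are genes called by limma and black bars are list medians. The somatic-type H2B list, with a median of 0.47, holds 3 called genes, and most other lists hold none or 1.

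The largest rises were in genes of unrelated kinds, and their wild-type arrays were not always alike. Map4k1, a kinase of blood cells that acts in JNK signalling, was at 5.61, 5.59, 5.23, 5.51 and 5.64 in wild type and at 8.78, 8.87, 8.57, 8.88 and 9.62 in kd. All kd arrays lay above all wild-type arrays with a wide gap. The rise was 3.43 ± 0.15, or 10.7-fold (adjusted p = 4.35e-21, limma). Psmd8, a subunit of the proteasome's regulatory particle, was at 7.06, 7.03, 7.60, 7.12 and 7.41 in wild type and at 10.09, 9.90, 10.12, 10.06 and 10.79 in kd. It too was separated on every array, with a rise of 2.95 ± 0.22, or 7.72-fold (adjusted p = 1.03e-12).

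Oit1, a gene of the FAM3 family of secreted proteins, had the largest fitted rise, 3.58 ± 0.46 (adjusted p = 2.35e-06, limma). It was at 4.42, 4.41, 4.33, 4.45 and 8.32 in wild type and at 8.44, 9.29, 8.75, 9.24 and 8.14 in kd. Wild-type array 5 was at the kd level, and the other 4 wild-type arrays had no signal. Haus1, a subunit of the augmin complex that nucleates spindle microtubules, was at 5.42, 5.21, 5.14, 8.65 and 5.37 in wild type and at 9.33, 9.57, 8.55, 8.61 and 8.54 in kd. Here wild-type array 4 was at the kd level, and the fitted rise was 2.96 ± 0.46 (adjusted p = 5.17e-05). Tubb6, a beta-tubulin on the same chromosome, 18, was at 9.70 on that array, against 7.38 to 7.82 on the other wild-type arrays and 9.68 to 10.81 in kd (rise 2.13 ± 0.39, adjusted p = 0.000647).

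The same was seen for several genes of chromosome 7 on wild-type array 2. Foxa3, a forkhead transcription factor best known from liver, was at 7.23 on that array and between 5.14 and 5.34 on the other wild-type arrays, with kd arrays from 7.22 to 7.89 (rise 2.08 ± 0.26, adjusted p = 9.01e-07, limma). Isoc2a, an isochorismatase-domain gene, was at 7.53 on wild-type array 2 against 5.14 to 5.58 on the others (rise 1.84 ± 0.41, adjusted p = 0.00637). Psg19, a pregnancy-specific glycoprotein gene, was at 6.17 on that array, against 4.46 to 4.53 on the others and 6.31 to 8.11 in kd (rise 2.26 ± 0.33, adjusted p = 1.83e-05). Zfp296 (6.74) and Clasrp (9.0), a zinc-finger gene and its neighbour for a splicing-related protein, also had their highest wild-type value on array 2. The single arrays at the other group's level were thus different ones for different genes.

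Of the other large rises, Cftr, the chloride channel altered in cystic fibrosis, was at 4.44 to 4.98 in wild type and at 7.11, 6.78, 4.93, 7.84 and 7.61 in kd. Kd array 3 was at the wild-type level, and the rise was 2.09 ± 0.33 (adjusted p = 7.16e-05, limma). Cftr was above background on 1 of 5 wild-type and 5 of 5 kd arrays, so the size of its rise is uncertain. Dlg1, a scaffold protein of cell polarity, was at 4.43, 4.43, 4.93, 6.95 and 6.69 in wild type and at 6.52 to 8.07 in kd (rise 2.06 ± 0.39, adjusted p = 0.000965). Pop4, a subunit of the RNA-processing enzymes RNase P and RNase MRP, was at 9.08 on wild-type array 4, 7.46 to 7.86 on the others and 9.10 to 9.97 in kd (rise 1.68 ± 0.25, adjusted p = 2.55e-05).

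**Figure D3:**
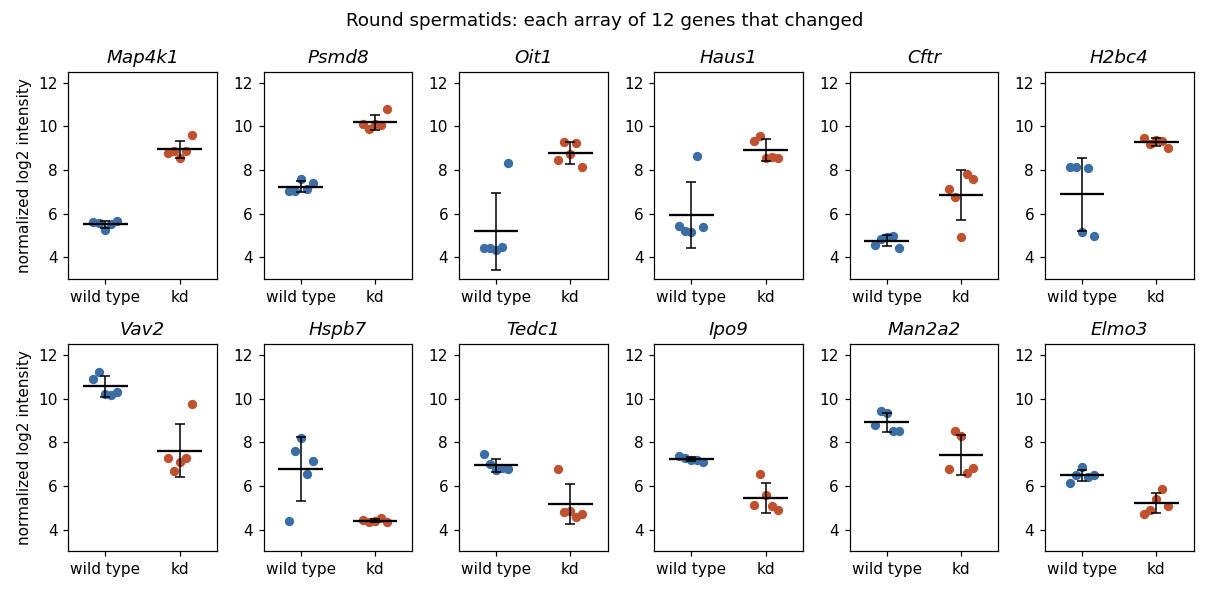
Each point is 1 array, with the normalized log2 intensity on the vertical axis. Bars give the mean and SD of 5 arrays. Map4k1 and Psmd8 are separated on every array, while single arrays of Oit1, Haus1, Cftr, Vav2, Hspb7 and Tedc1 lie at or near the level of the other group.

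Vav2, a signalling adaptor and exchange factor, fell most. It was at 10.88, 11.23, 10.21, 10.19 and 10.29 in wild type and at 7.26, 6.70, 7.08, 7.30 and 9.75 in kd. Kd array 5 was close to the wild-type arrays without overlapping them, and the fall was 2.94 ± 0.42 on the log2 scale (adjusted p = 1.79e-05, limma). Its 2 other kept probes, which were dim, gave -0.61 and -0.91.

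Hspb7, a small heat shock protein of heart and muscle, was at 4.40, 7.60, 8.21, 6.55 and 7.14 in wild type and at 4.46, 4.34, 4.41, 4.52 and 4.34 in kd. No kd array was above background, nor was wild-type array 1. The level was at least 3.60-fold lower in kd (adjusted p = 0.000206, limma), where the bound sets the wild-type mean against the lowest signal above background on the kd arrays. Xkr8, a phospholipid scramblase, had the same pattern on the same chromosome, 4, at 4.39 on wild-type array 1 and 5.61 to 6.89 on the others. It was above background on none of the kd arrays and at least 1.80-fold lower (adjusted p = 0.0457), a call kept only when wild-type array 1 was the one left out (adjusted p up to 0.231 otherwise). Gpn2, a GPN-loop GTPase, and Rab42, a Rab family gene, are also on chromosome 4. Their lowest wild-type values, 5.65 and 5.51, were again those of array 1. They fell by 1.56 ± 0.37 (adjusted p = 0.0126) and 1.25 ± 0.31 (adjusted p = 0.0207). Gpn2 did not pass without wild-type array 2 or 3, nor Rab42 without wild-type array 3, 4 or 5 or kd array 3 or 4.

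Ipo9, a nuclear import receptor, was at 7.35, 7.29, 7.20, 7.21 and 7.09 in wild type and at 5.15, 6.56, 5.60, 5.08 and 4.87 in kd. All kd arrays were lower, with array 2 the nearest, and the fall was 1.77 ± 0.24 (adjusted p = 4.41e-06, limma). Tedc1, a gene for a centriole protein complex, was at 6.72 to 7.45 in wild type and at 6.78, 4.82, 4.85, 4.58 and 4.73 in kd. Kd array 1 was at the wild-type level and was the only kd array above background for it (fall 1.80 ± 0.31, adjusted p = 0.000206).

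Man2a2, a Golgi mannosidase of N-glycan processing, was at 8.78, 9.45, 9.33, 8.52 and 8.51 in wild type and at 6.78, 8.51, 8.27, 6.58 and 6.84 in kd. The groups were narrowly separated at kd array 2, and the fall was 1.52 ± 0.25 (adjusted p = 0.000179, limma). When all kept probes of the gene were averaged, the difference was -0.31 and did not pass (adjusted p = 0.181), since its 3 other probes carried almost no signal. Rd3, a regulator of guanylate cyclase known from photoreceptors, was at 9.12 to 9.34 in wild type and at 7.45 to 8.05 in kd (fall 1.42 ± 0.19, adjusted p = 5.41e-06). A second probe of Rd3, above background on all 10 arrays, gave 0.10, so the fall was read by 1 of its 2 probes.

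Elmo3, an adaptor for Rac activation and cell engulfment, was at 6.15, 6.48, 6.86, 6.42 and 6.50 in wild type and at 4.73, 4.91, 5.42, 5.87 and 5.08 in kd. Every kd array was lower, and the fall was 1.28 ± 0.15 (adjusted p = 1.65e-07, limma). A second, dimmer probe of Elmo3 gave -0.23. The agouti gene, symbol a, which encodes a pigment signal, was at 5.93 to 7.08 in wild type and at 4.84 to 5.37 in kd (fall 1.27 ± 0.26, adjusted p = 0.00198). Zfp367, a zinc-finger gene, was at 4.86 on wild-type array 5, 6.06 to 6.70 on the others and 4.55 to 5.23 in kd (fall 1.33 ± 0.31, adjusted p = 0.0111). It did not pass without wild-type array 2 (adjusted p = 0.0542).

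Some called genes were neighbours in the order of tested genes. These runs were picked after their values were seen. On chromosome 6 a run of 4 trypsin-family genes was lower: Try4 by 1.25, Try5 by 1.39, Try10 by 0.90 and Gm5409 by 0.89 on the log2 scale. Their sequences are near-identical, so the 4 probes may read the same RNA. Try4, Try10 and Gm5409 were each above background on 1 of 5 kd arrays, so the sizes of their falls are uncertain. Try5 was at 6.63 to 7.13 in wild type and 5.03 to 6.08 in kd (adjusted p = 8.78e-05, limma). Also on chromosome 6, Asz1 fell, Cftr rose and Lsm8, a subunit of an RNA-binding ring, rose by 0.52 (adjusted p = 0.0254). Lsm8 did not pass without wild-type array 2, 3 or 5 or kd array 2, 4 or 5. On chromosome 7 the gene Ryr1, a calcium release channel, fell by 0.75 (adjusted p = 0.0287) and Rasgrp4, an exchange factor for Ras, rose by 0.53 (adjusted p = 0.00603) beside Map4k1. Ggn, the germ cell gene gametogenetin, fell by 0.40 (adjusted p = 0.0173) beside Psmd8. Ryr1 did not pass without wild-type array 2, 3 or 5 or kd array 1 or 5, nor Ggn without wild-type array 2 or 3 or kd array 5. In both runs members went in opposite directions. The same held for Trappc6a (-1.02) beside Nkpd1 (1.13) and for Zfp94 (-1.15) beside Lypd5, and Zfp94 passed only with all arrays or without kd array 2 or 4. Lypd5 was above background on none of the wild-type arrays and at least 2.03-fold higher in kd (adjusted p = 0.000179).

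Chromosome 7 held 40 of the 232 called genes out of 992 tested there, or 4.03%, of which 23 were higher and 17 lower. Chromosome 4 followed with 23 of 762 (3.02%). Along chromosome 7, in gene order, 4 stretches of 248 genes each held 17, 14, 8 and 1 called genes. In experiment 1, tagged round spermatids had 16.8% of chromosome 7 genes called against 16.2% of all genes. No test of the share by chromosome was made.

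**Figure D4:**
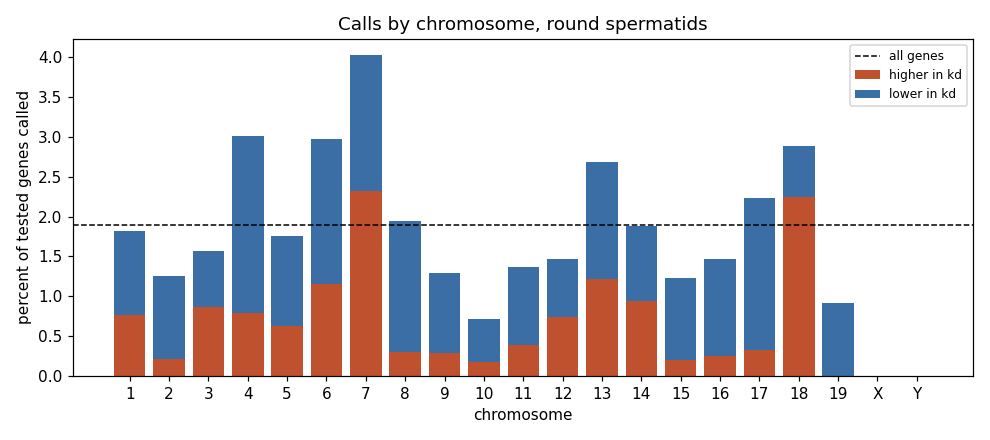
Bars give, for each chromosome, the percent of tested genes called higher and lower in kd round spermatids, stacked, and the dashed line marks 1.89%, the percent over all genes. Chromosome 7 reaches 4.03%, and the X and Y chromosomes have no called gene.

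Wild-type round spermatids of experiment 1 gave a second wild-type level for the same genes. They were not part of the contrast and belong to another experiment, in which 27.8% of all genes differed from the wild type of experiment 2. Map4k1 ran from 9.98 to 10.27 on these 6 arrays and Psmd8 from 9.92 to 10.67, at or above the kd level. Oit1 ran from 8.50 to 9.06, Haus1 from 7.91 to 8.80 and Foxa3 from 7.36 to 7.68, each at or near the kd level. Vav2 ran from 6.83 to 7.70, near the kd arrays 1 to 4. Hspb7, from 6.72 to 7.64, was instead at the level of wild-type arrays 2 to 5. Ipo9, from 6.95 to 7.39, Tedc1, from 7.09 to 7.75, and Try5, from 6.83 to 7.57, also lay near or above the experiment 2 wild-type level. In all, the experiment 1 wild-type mean was nearer to kd than to the experiment 2 wild type for 46 of the 85 genes that rose (54.1%) and 45 of the 147 that fell (30.6%), against 48.1% of all genes.

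The kd difference in spermatocytes was set beside that in round spermatids to compare the stages before and after the meiotic divisions. Of the 232 genes, 68 were also called in spermatocytes, which is 29.3% of the spermatid calls and 35.6% of the 191 spermatocyte calls (1.56% of all genes; 120 calls without kd spermatocyte array 1). All 68 went the same way in both cell types, 28 higher and 40 lower, where 0.824% of all genes were called higher and 0.734% lower in spermatocytes. Psmd8 rose by 3.58 in spermatocytes (adjusted p = 2.32e-15, limma), Vav2 fell by 3.81 (adjusted p = 5.27e-08) and Ipo9 fell by 1.69 (adjusted p = 8.89e-06).

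A test of the difference between the cell types passed for 6 genes (0.0489% of all). At an unadjusted p under 0.05 it passed for 508 genes, or 4.14% of all. With genotype and number as a random block over both cell types, chosen after seeing the data, 12 genes passed, the 6 among them. With experiment 2 fitted by itself 9 passed, of which only H2bc1 and Klk1b22 were among the 6, and the other 4 had an adjusted p of 0.0787. Among the 232 genes it passed for Map4k1 and Elmo3. Map4k1 rose by 2.23 in spermatocytes, less than in round spermatids by 1.19 ± 0.21 (adjusted p = 0.00727, limma). In spermatocytes it was at 5.60, 6.24, 5.80, 6.01 and 5.70 in wild type and at 8.37, 8.13, 8.11, 7.49 and 8.42 in kd. Elmo3 had little signal in spermatocytes, 4.57 to 4.92 in wild type and 4.47 to 4.83 in kd. The difference for Elmo3 was -1.09 ± 0.21 (adjusted p = 0.0105). The other 4 were H2bc1 (-1.64), Pnmal1 (-2.31), Mfap4 (-1.08) and Klk1b22 (-1.52). They rose in kd spermatocytes and carried little or no signal in round spermatids of either group. Peritubular and vascular markers were also higher in kd spermatocytes, with 8 of 25 called higher and a list mean of 5.77 to 6.49 in wild type and 6.52 to 7.48 in kd. Acta2, smooth muscle actin, rose 3.57-fold there (adjusted p = 0.00766). The part of these cells in the spermatocyte differences was not tested.

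Where 1 spermatid array lay at or near the other group's level, the spermatocyte array of the same number usually stood out as well. Haus1 was at 8.84 on wild-type spermatocyte array 4 and between 5.36 and 5.69 on the other wild-type ones. Oit1 was at 7.18 on wild-type spermatocyte array 5 and between 4.29 and 4.43 on the others. Vav2 was at 9.91 on kd spermatocyte array 5 and between 6.34 and 6.74 on the other kd arrays. Wild-type spermatocyte array 2 was the highest wild-type array for Foxa3 (6.86), Isoc2a (8.49), Clasrp (8.26) and Zfp296 (6.49), and array 4 for Tubb6 (7.11) and Pop4 (10.65). Array 1 was the lowest wild-type array for Hspb7, Xkr8, Gpn2 and Rab42, and array 5 for Zfp367. Among kd spermatocytes, array 1 was the highest for Tedc1 (7.79) and array 3 the lowest for Cftr (4.51). Psg19 was an exception, at 4.63 on wild-type spermatocyte array 2 and 4.33 to 4.47 on the others. Over all genes, deviations from the group mean correlated between spermatid and spermatocyte arrays of one genotype and number at 0.19 to 0.35 in wild type and 0.03 to 0.46 in kd. The labels do not say whether arrays of one number came from one mouse.

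**Figure D5:**
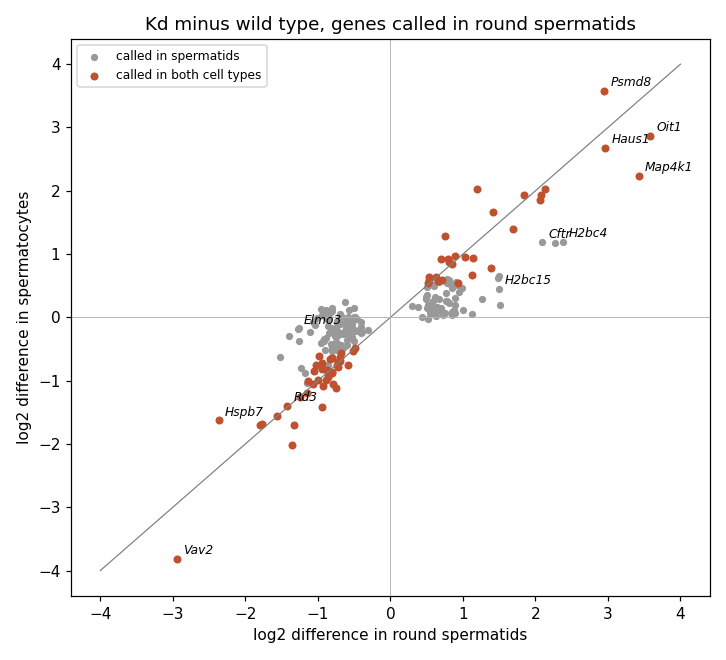
Each point is 1 of the 232 genes called in round spermatids, with its log2 difference of kd minus wild type in round spermatids on the horizontal axis and in spermatocytes on the vertical axis. The line marks equal differences, and the 68 coloured genes, called in both, all lie in the quadrants of equal sign.

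The tag comparison of experiment 1 served to set the kd difference beside another change of TH2B in round spermatids, and the pair share no arrays. Tagged round spermatids had 1984 called genes (16.2% of those tested). Of the 232 kd calls, 71 were among them, which is 30.6% of the kd calls and 3.58% of the tag calls, and 57 of the 71 had the same direction. The kd and tag differences were themselves different for 1197 genes (9.76%) and for 116 of the 232. The widest gaps mostly came from genes with a large tag difference and no kd call. Ranbp6, an importin family gene, was at -0.56 with kd and 3.99 with tag. Tmod4, an actin-capping gene, was at -0.73 with kd and -4.12 with tag. Its 3 kept probes gave -0.73, -0.74 and -0.95 with kd, and it passed with kd in 4 of 24 other settings. The chitinase-like genes Chil3 and Chil4 were at 0.33 and 0.05 with kd and at 4.31 and 4.35 with tag. Oit1 was the exception among these, at 3.58 with kd and 0.06 with tag (difference 3.53 ± 0.62, adjusted p = 6.34e-05, limma). Wide gaps from a large kd difference were also found for Psmd8 (3.06), Map4k1 (3.03), Vav2 (-3.04) and Haus1 (2.86). Their tag differences were -0.12, 0.39, 0.10 and 0.10. H2bc15 and H2bc9 rose in both, by 1.12 and 0.88 with tag (adjusted p = 0.000705 and 0.0016).

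Markers of other cells moved with the groups to a small extent. The mean level of 25 peritubular and vascular markers ran from 5.84 to 6.11 in wild type and from 6.17 to 6.37 in kd, without overlap, and Fn1, fibronectin, was called among them (0.70 ± 0.19, adjusted p = 0.0331, limma). It was above background on 2 of 5 wild-type and 5 of 5 kd arrays, and its call ended without wild-type array 2, 3 or 5 or kd array 1, 3 or 5. Acta2 was at 1.03 ± 0.41 (adjusted p = 0.285). The mean of 19 macrophage and blood markers ran from 5.76 to 6.17 in wild type and from 6.17 to 6.43 in kd, with a slight overlap and none called. At an unadjusted p under 0.05 (limma), 3 of these markers were higher in kd and 1, H2-Ab1 (-0.52), was lower. Of the peritubular list, 7 markers were above background on no wild-type array and 3 on no kd array, Pecam1 and Eng among them in both groups. The part of these cells in the results was not tested. Sertoli, Leydig, spermatogonia, spermatocyte and elongating spermatid marker means overlapped between the groups. In bulk RNA fewer cells of a type and less RNA per cell cannot be told apart.

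In wild-type cells of experiment 1, 37 of the 85 genes that rose with kd (43.5%) were higher in round spermatids than in spermatocytes and 20 (23.5%) lower, against 27.8% and 33.7% of all genes. Of the 147 that fell, 65 (44.2%) were higher in round spermatids and 38 (25.9%) lower. The genes that rose and those that fell thus had close shares of genes that normally increase after meiosis. No test of these shares was made.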

How the data were processed

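Total RNA from round spermatids and spermatocytes was read on 44 Illumina arrays in 8 groups. Per the file headers, the deposited raw file holds a mean bead intensity per probe and array, with no normalization visible in its values. Beside each intensity the deposited table has a detection p-value, in steps of 1 in 936. The authors' processed table holds quantile-normalized intensities on a linear scale, with array medians of 104.3 to 104.4. The labels name no software for these steps. The raw intensities were background-corrected (normexp, offset 16), quantile normalized and log2 transformed with limma 3.58.1 in R 4.3.3. Probes above background (detection p under 0.05) on at least 5 arrays were kept (22605), and the brightest named probe stood for each of 12260 genes. Probe names came from the platform annotation, and a match to RefSeq changed no symbol.

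All 44 arrays entered a single linear model of 8 groups (lmFit, eBayes), with two-sided tests, Benjamini-Hochberg adjustment over 12260 genes and a threshold of 0.05. Values after ± are standard errors unless marked SD. "At least" folds set the mean of the group with signal against the other group's values, raised to the lowest signal above background. The members and gene lists were chosen with earlier results of these data known. Genes were named by a rule: the 12 largest rises and falls, H2bc1 and H2ac1, up to 4 per list by smallest p, the 5 largest each way of each difference and up to 20 called in both cell types. Genes of neighbouring runs, those at the threshold, Prm3, H2bc12 and H2bc14 were chosen after their values were seen.

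Same-numbered kd and wild-type spermatid arrays deviated together weakly or not at all, with correlations from -0.05 to 0.14, above 0.1 for number 1 only. The labels do not mark the numbers as pairs, and the main fit did not use them as such. Whether they are pairs was not settled: with number as a block 599 genes passed in spermatids, with all 232 calls among them. Same-numbered spermatid and spermatocyte arrays of one genotype correlated at 0.19 to 0.35 in wild type and 0.03 to 0.46 in kd, above 0.1 for every number except kd 1.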

Additional observations from a re-analysis of the deposited data

Results flagged for a closer look

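In groups of 5 arrays, a highest or lowest array far from the rest was looked for among the genes named above. It was found in 23 of 150 groups. For normally distributed values the cut-off used gives about 1 in 20. These genes were mostly chosen by their differences or after their values were seen, and the share over all genes was not counted. The excess is therefore a description only. Wild-type array 2 stood high for Clasrp (9.0), Foxa3 (7.23), Isoc2a (7.53), Psg19 (6.17) and Zfp296 (6.74), all on chromosome 7. Wild-type array 4 stood high for Haus1 (8.65), Tubb6 (9.70) and Pop4 (9.08), and wild-type array 5 for Oit1 (8.32). Wild-type array 3 was high for Acta2 (8.93) and array 1 for Usp26 (8.85).

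Kd array 5 stood high for Vav2 (9.75), Psmd8 (10.79), Rad54l (7.20) and Rasgrp4 (12.71) and low for Zfp94 (6.90). Kd array 1 was high for Tedc1 (6.78) and low for Try4 (4.72). Kd array 2 was high for Ranbp6 (5.99) and Try10 (4.99). Kd array 3 was high for H2bc1 (5.34) and low for H2bc14 (10.99), and kd array 4 was low for Foxa3 (7.22).

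The kd difference itself differed between round spermatids and spermatocytes (limma) for Map4k1 (1.19), Elmo3 (-1.09), H2bc1 (-1.64), Klk1b22 (-1.52), Mfap4 (-1.08) and Pnmal1 (-2.31), given as spermatids minus spermatocytes. Elmo3 had little signal in spermatocytes, and H2bc1, Klk1b22, Mfap4 and Pnmal1 had little or none in round spermatids. For these genes a kd difference could hardly be read in the cell type without signal.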

How the results depend on the processing

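The number of calls in round spermatids, 232, stayed between 205 and 260 with other background corrections, normalizations, filters, probe summaries and spread estimates. The genes changed more, with 189 to 217 of the 232 called again. The count was 749 with array weights (232 shared), 355 when experiment 2 was fitted by itself (215 shared) and 364 when the 2 groups were (185 shared). Leaving out 1 array gave 161 to 289. For spermatocytes the 191 calls became 311 with cyclic loess, 469 with array weights, 365 from experiment 2 by itself and 113 from the 2 groups by themselves. Leaving out 1 array gave 120 (kd array 1) to 273 (wild-type array 1). The 6 genes whose kd difference differed between cell types became 10 with cyclic loess, 2 after stricter probe filtering, 28 with array weights and 5 to 8 without 1 array. The stricter filter removed H2bc1, Klk1b22, Mfap4 and Pnmal1 before testing. Map4k1 and Elmo3 both passed after it (adjusted p = 0.0151 and 0.0157, limma). Fitting experiment 2 by itself gave 9, with 2 of the 6 among them. Of the 6, Map4k1 did not pass with median centring (0.99, adjusted p = 0.155), Elmo3 with probes averaged (-0.59, adjusted p = 0.156), nor Klk1b22 and Mfap4 without background correction or on the authors' values. Mfap4 also did not pass without wild-type spermatocyte array 4 (adjusted p = 0.0513). The 1197 differences between kd and tag became 2054 with array weights and 1044 to 1389 without 1 array. Chosen after seeing the data, a random block of genotype and number over both cell types gave 12 differences between cell types, and leaving out both kd arrays numbered 2 gave 3.

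With replicate number as a block, the counts were 599 in spermatids, 972 in spermatocytes, 37 for the difference between cell types and 2113 for kd against tag. The numbers do not mark pairs in the labels.

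Of 49 called genes followed by name, 49 kept their direction in every setting that tested them, and 30 stayed past the threshold in all of those. Among the 30, Cftr, Hspb7, Lypd5, Gm5409 and Try10 were tested in 23 settings only, since the stricter probe filter removed them. Some values that did not pass changed sign. H2bc12 went from -0.43 to 0.030 when its disagreeing probes were averaged. Prm1 went to 0.049 with cyclic loess and Tnp2 to -0.0055 with median centring. Without 1 array, Chil4 ran from -0.082 (kd array 3) to 0.15 and Mfap4 from -0.088 (kd array 4) to 0.0059 (kd array 3). The causes were not tested. Genes near background, 66 of the 232 on some arrays, have the least certain sizes.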
